A study of Mus musculus with 19 samples.

Results

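The genes described here encode the respiratory chain and ATP synthase of the mouse kidney, together the machinery of oxidative phosphorylation. They were chosen by symbol: 13 rows of the mitochondrial genome (ND1 to ND6, ND4L, CYTB, COX1 to COX3, ATP6 and ATP8) and 100 nuclear genes of the Nduf, Sdh, Uqcr, Cox4 to Cox8 and Atp5 families, 113 in all of 40413 rows in the count table. Polyadenylated RNA from whole kidneys was sequenced, 1 library per mouse, and all libraries carried batch label 2. Adult BPN/3J mice, which have normal blood pressure, and adult BPH/2J mice, a hypertensive strain derived by selective breeding, received vehicle or Cmpd17b, an agonist of formyl peptide receptors, at 50 mg/kg/day by intraperitoneal injection for 28 days. Of BPN/3J, 4 mice on vehicle and 5 on Cmpd17b were compared, and of BPH/2J, 5 on vehicle and 4 on Cmpd17b. Strain, hypertension and every allele that separates the strains, those of the mitochondrial genome included, go together in the groups and cannot be told apart. In whole kidney, fewer cells of a type and less RNA per cell cannot be told apart either.

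Another Cmpd17b BPH/2J library, replicate 1, was left out of every comparison because it held heart transcripts. In it Myh6, the alpha myosin heavy chain of heart muscle, was at 14200 CPM (counts per 1e6 of the library total). Slc34a1, the phosphate transporter of the proximal tubule, was at 5.94 CPM against 2202 to 4236 CPM in the other 18 libraries. Those 18 held all 14 proximal tubule markers that were looked up, at a summed level between 12546 and 17488 CPM. Their total counts ran from 21400119 to 40998662. Unless stated otherwise, CPM below is scaled by TMM factors, which adjust library totals for composition.

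Oxidative phosphorylation passes electrons from NADH and succinate through complexes I to IV to oxygen, pumps protons across the inner mitochondrial membrane, and uses the proton gradient to make ATP in complex V. The subunits come from both genomes. The mitochondrial genome encodes core subunits of complexes I, III, IV and V and is read into long RNAs that are trimmed and polyadenylated inside the organelle. The nucleus encodes all of complex II, the remaining core subunits, the small accessory subunits and the assembly factors, whose proteins are imported. The proximal tubule and the thick ascending limb of the kidney are rich in mitochondria, which power the reabsorption of salt, glucose and amino acids.

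Complex I accounted for 7 mitochondrial and 42 nuclear genes, complex II for 4 nuclear genes, complex III for 1 and 8, complex IV for 3 and 19, and complex V for 2 and 18. The other 9 nuclear genes encode assembly factors or relatives of subunits. Of the 113 genes, 108 passed the filter on low counts and were tested, 13 mitochondrial and 95 nuclear. The 5 not tested were Cox7b2, Cox8c, Ndufa11b and Ndufb11b, which had a count in 2 libraries or fewer, and Ndufs6b, whose highest count was 11. Ndufa11b, Ndufb11b, Ndufs6b, Ndufb4b and Ndufb4c are near copies of other members, and the mitochondrial genes have copies of their sequence in the nuclear genome, so the split of reads among such copies is uncertain.

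The nuclear genes are read from separate promoters scattered over the genome, and 3 short stretches upstream of a start site are shown as examples. They were picked for holding the NRF1 motif. Each is from the most abundant member of its complex with such a match upstream. Only 25 of 77 nuclear genes with a matched promoter held this motif, and Atp5f1b, the most abundant nuclear gene of complex V, did not. The capitals mark the core of the binding motif of NRF1, nuclear respiratory factor 1 (GCGCANGC on either strand), and, in Ndufb4, also the short site of the estrogen-related receptors (AAGGTCA on either strand). Each is given 5′ to 3′ on the strand of the gene, from RefSeq promoters of GRCm38.p6. Ndufb4 (complex I) lies at chr16:37654369-37654428 on the minus strand, Cox6a1 (complex IV) at chr5:115349042-115349101 on the minus strand, and Atp5f1c (complex V, listed as Atp5c1) at chr2:10080433-10080492 on the minus strand.
Ndufb4: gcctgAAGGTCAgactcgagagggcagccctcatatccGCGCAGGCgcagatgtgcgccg
Cox6a1: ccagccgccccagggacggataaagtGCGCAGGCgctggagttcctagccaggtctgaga
Atp5f1c: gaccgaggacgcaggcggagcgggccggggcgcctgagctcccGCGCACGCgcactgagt
The NRF1 core ended 14 bases before the start site in Ndufb4, 109 in Cox6a1 and 9 in Atp5f1c.

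RefSeq promoter windows were matched for 77 of the 100 nuclear genes, each from 250 bases before to 50 bases after the start. A gene counted as holding a motif if any of its windows did, so genes with several windows had more chances to match. The NRF1 core was present in 25 of the 77 genes (32.5%), against 11.2% of all 27025 genes. The core of YY1 (AAGATGGC) was present in 14.3% against 3.19%, the estrogen-related receptor site in 10.4% against 5.38%, and the ETS core bound by the GABP factors (CCGGAAGT) in 6.49% against 4.31%. At least 1 of the 4 motifs was in 39 of the 77 genes (50.6%), against 21.7% of all genes. Member windows also had a higher median GC content, 58.3% against 52.7%. A match is a description of letters and not evidence of binding.

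The mitochondrial genes are packed end to end, and in places they overlap. By GENCODE M21 on GRCm38, the last 43 bases of ATP8, chrM:7927-7969, are also the first of ATP6. The stretch is shown because reads from it belong to both genes, with the start codon of ATP6 in capitals.
ATP8 and ATP6: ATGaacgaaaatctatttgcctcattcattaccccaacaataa
ND4L and ND4 share the 7 bases ATGctaa at chrM:10167-10173, again with the start codon of the second gene in capitals. ND5 and ND6 share 14 bases at their ends but lie on opposite strands, ND6 being the protein gene read from the other strand. Whether the counting used strand is not given in the sources used here, so reads of ND6 and of RNA antisense to it cannot be told apart.

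The 13 mitochondrial genes together took between 12.5% and 26.2% of all counts in the 18 libraries. The share was 14.1%, 12.96%, 13.2% and 16.0% in the 4 vehicle BPN/3J libraries, and 13.9%, 12.5%, 12.9%, 14.2% and 14.7% under Cmpd17b. In BPH/2J it was 17.4%, 15.8%, 20.5%, 17.7% and 21.2% under vehicle, and 16.3%, 18.995%, 17.2% and 26.2% under Cmpd17b. The BPH/2J libraries were the higher ones in both arms. Under vehicle the highest BPN/3J library passed the lowest BPH/2J library, and under Cmpd17b they did not overlap. The mean was 14.1 ± 1.39% (SD, n = 4) in vehicle BPN/3J and 18.5 ± 2.28% (SD, n = 5) in vehicle BPH/2J. Under Cmpd17b it was 13.6 ± 0.914% (SD, n = 5) and 19.7 ± 4.503% (SD, n = 4).

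The 100 nuclear genes took a far smaller share, which differed less between the strains. It was 2.46%, 2.50%, 2.50% and 3.02% in vehicle BPN/3J and 2.12%, 2.46%, 2.58%, 2.40% and 3.04% in Cmpd17b BPN/3J. It was 2.11%, 2.43%, 3.16%, 2.99% and 2.97% in vehicle BPH/2J and 2.21%, 2.78%, 2.62% and 2.92% in Cmpd17b BPH/2J. The ranges of the strains overlapped in both arms. The strain difference in the mean nuclear share was 0.114 percentage points under vehicle and 0.113 under Cmpd17b, against SDs of 0.267 to 0.442 within groups. The total in this share includes the mitochondrial counts, so it falls where those rise. Of the counts that were not mitochondrial, the nuclear genes took a mean of 3.05% in vehicle BPN/3J and 3.36% in vehicle BPH/2J. Under Cmpd17b the means were 2.92% and 3.30%. SDs within groups were 0.362 to 0.611, and the strains overlapped in both arms. The mitochondrial share of all counts differed by 4.43 and 6.01 percentage points. Without Cmpd17b BPH/2J replicate 5 the second value was 3.83. No test is given for these sums.

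The log2 ratio of the mitochondrial to the nuclear sum sets the classes against each other within a library, so that library size drops out. It was 2.52, 2.38, 2.40 and 2.41 in vehicle BPN/3J and 2.71, 2.35, 2.31, 2.56 and 2.27 in Cmpd17b BPN/3J. It was 3.04, 2.701, 2.7003, 2.56 and 2.83 in vehicle BPH/2J and 2.88, 2.77, 2.71 and 3.16 in Cmpd17b BPH/2J. All 5 vehicle BPH/2J libraries lay above all 4 vehicle BPN/3J libraries. Under Cmpd17b the lowest BPH/2J library and the highest BPN/3J library were level at 2 decimals. The group means differed between strains by 0.34 under vehicle and 0.44 under Cmpd17b, so relative to the nuclear class the mitochondrial class was higher in BPH/2J kidneys. The library left out stood at 2.65, with 30.2% mitochondrial and 4.82% nuclear counts.

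**Figure D1:**
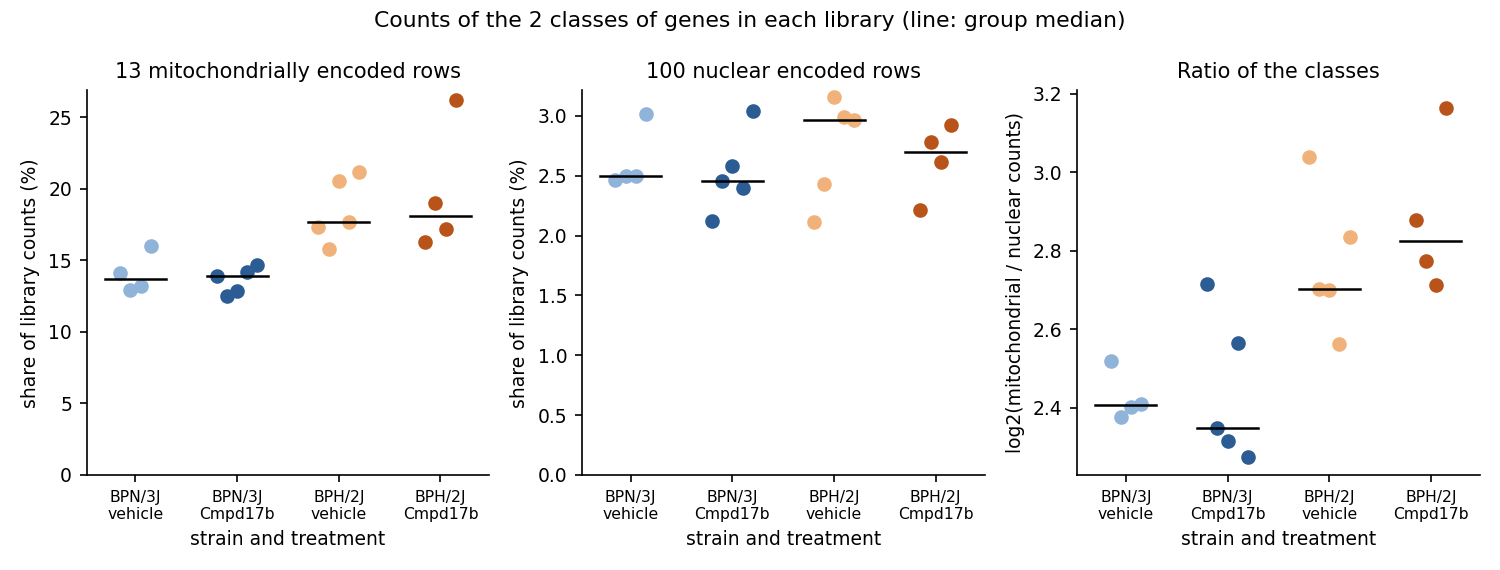
Share of all counts, in percent, taken by the 13 mitochondrially encoded and by the 100 nuclear encoded genes, and the log2 ratio of these sums, with 1 point per library and a line at the group median. The mitochondrial share lies between 12.5% and 16.0% in BPN/3J and between 15.8% and 26.2% in BPH/2J, while the nuclear shares of the strains overlap.

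Markers of cell types were measured beside these shares. All markers of each list had counts. The proximal tubule sum had group medians of 16485, 16639, 16317 and 16315 CPM in the order vehicle BPN/3J, Cmpd17b BPN/3J, vehicle BPH/2J and Cmpd17b BPH/2J, with overlapping ranges. The 7 thick ascending limb markers had medians of 2823, 2283, 3037 and 3044 CPM, also overlapping. Gene by gene, 3 of 14 proximal tubule markers had a log2 fold change of BPH/2J over BPN/3J above 0 under vehicle. Under Cmpd17b 5 did (medians -0.19 and -0.15). Of the 7 thick ascending limb markers 6 were above 0 in both arms (medians 0.17 and 0.26). No marker of these 2 lists was called. The 5 red blood cell markers were at 1088 to 1701 CPM in Cmpd17b BPH/2J and at 608 to 873 CPM in Cmpd17b BPN/3J, which do not overlap, and the 6 podocyte markers at 151 to 216 CPM in vehicle BPH/2J against 91.4 to 119 CPM in vehicle BPN/3J. The 5 fibroblast markers were at 33.7 to 112 CPM against 18.1 to 37.9 CPM under vehicle. Of the fibroblast markers 2 of 5, and of the podocyte markers 4 of 6, were called higher in vehicle BPH/2J, against 5.82% of all genes. Under Cmpd17b 2 of 5 red blood cell markers and 1 of 6 podocyte markers were, against 5.71%. All 6 podocyte markers were above 0 in both arms (medians 0.95 and 0.51). In the arm for which no sums are given here, the sums of the strains overlapped for each of these 3 lists. Besides the proximal tubule list, others leaned lower in BPH/2J. None of the 5 distal convoluted tubule markers had a log2 fold change above 0 in either arm (medians -0.41 and -0.39, no call). Of the 6 leukocyte markers, 3 were above 0 under vehicle. Under Cmpd17b none was, and 2 were called lower, against 4.65% of all genes. The 14 heart muscle markers were at 145 to 208 CPM in Cmpd17b BPH/2J and at 14.96 CPM or less in the other groups. Under Cmpd17b 13 of 14 were called higher in BPH/2J, against 5.71% of all genes. The part of these cell types in the mitochondrial share was not tested.

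Per kilobase of transcript, the mitochondrial genes were the most abundant members. COX2 stood highest at a mean of 33548 CPM per kilobase over the 18 libraries, followed by COX3 at 29309, COX1 at 27248, ATP6 at 24307, CYTB at 16224 and ND1 at 14946. ND4, ND3 and ND2 were at 9941, 9033 and 7537. ND4L at 2434, ND5 at 2198, ATP8 at 1719 and ND6 at 961 were the lowest of the class. The median of the 90 nuclear genes with a known length was 216 CPM per kilobase, and the highest was Atp5f1b, the beta subunit of ATP synthase, at 1397. Every mitochondrial gene except ND6 was thus above every nuclear member on this scale.

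In the strain comparison under vehicle, edgeR called 10.8% of 16421 tested genes at an adjusted p under 0.05, and 5.82% as higher in BPH/2J. None of the 13 mitochondrial genes was called. At an unadjusted p under 0.05 there were 3932 of all 16421 tested genes, 2219 of them higher in BPH/2J. Of the 13 mitochondrial genes there were 4, all higher, namely ND2, ND4, COX1 and COX3. Of the 13, DESeq2 called 2 and limma-voom 1. The smallest edgeR adjusted p was that of ND2, 0.0522. The fitted log2 fold change of BPH/2J over BPN/3J was above 0 for all 13, although that of ND4L turned below 0 when counts were scaled by library totals only and in limma-voom. The median was 0.40, against 0.04 over all genes tested. ND2 alone had groups that did not overlap, higher in BPH/2J, which was so for 6.9% of all genes.

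Under Cmpd17b edgeR called 10.4% of the tested genes, 5.71% as higher in BPH/2J, and 4 of the 13 mitochondrial genes were higher: ND2, COX1, ND4 and CYTB. The same 4 genes were those with groups that did not overlap, against 6.38% of all genes higher without overlap. At an unadjusted p under 0.05 there were 9 of the 13, all higher, against 3953 of all 16421 tested genes, 2155 of them higher. The fitted log2 fold change was above 0 for all 13, with ATP8 below 0 on library totals only. The median was 0.67, against 0.01 over all genes. Both strain comparisons use different mice, and whether the strain difference itself changed with treatment is given by the interaction further on.

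ND2 encodes a core subunit in the proton-pumping arm of complex I. It was at 6624, 5449.8, 6436 and 6365 CPM in vehicle BPN/3J, at 6471, 5543, 6102, 5996 and 5748 in Cmpd17b BPN/3J, at 8441, 7629, 10267, 7775 and 10058 in vehicle BPH/2J, and at 8234, 9474, 8872 and 15344 in Cmpd17b BPH/2J. Every BPH/2J library was above every BPN/3J library. The edgeR log2 fold change was 0.51 ± 0.16 (SE) under vehicle and 0.81 ± 0.16 (SE) under Cmpd17b, with adjusted p = 0.0522 and 0.0021.

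COX1 encodes the catalytic subunit of complex IV, which holds the site where oxygen is reduced. It was at 34575, 31521, 34664 and 39646 CPM in vehicle BPN/3J, at 34217, 33892, 33998, 36016 and 32933 in Cmpd17b BPN/3J, at 47106, 38431, 49169.6, 39505 and 53816 in vehicle BPH/2J, and at 43079.7, 52674, 46343 and 76186 in Cmpd17b BPH/2J. Under vehicle the strains overlapped through the highest BPN/3J and the lowest pair of BPH/2J libraries, and under Cmpd17b they did not overlap. In edgeR its log2 fold change was 0.38 ± 0.16 (SE, adjusted p = 0.142) under vehicle and 0.67 ± 0.16 (SE, adjusted p = 0.00737) under Cmpd17b.

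ND4, another core subunit of the membrane arm of complex I, was at 11511, 10139, 10072 and 13833 CPM in vehicle BPN/3J, at 11106, 8737, 9420.0, 11236 and 12548 in Cmpd17b BPN/3J, at 14568, 12241, 19418, 14490.1 and 19822 in vehicle BPH/2J, and at 14373, 17757, 14122 and 21192 in Cmpd17b BPH/2J. Replicate 4 of vehicle BPN/3J overlapped the vehicle BPH/2J range, and the Cmpd17b groups did not overlap. The edgeR log2 fold change was 0.50 ± 0.17 (SE, adjusted p = 0.076) under vehicle and 0.67 ± 0.17 (SE, adjusted p = 0.0152) under Cmpd17b. Without Cmpd17b BPH/2J replicate 5 the second value was 0.54 (edgeR adjusted p = 0.0597).

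CYTB, the cytochrome b of complex III, was at 15805, 13187, 14203 and 19935 CPM in vehicle BPN/3J, at 14611, 13129, 13384, 14557 and 15851 in Cmpd17b BPN/3J, at 19105, 15050.4, 25683, 19106 and 25300.0 in vehicle BPH/2J, and at 17845, 24011, 17972 and 35342 in Cmpd17b BPH/2J. The vehicle groups overlapped and the Cmpd17b groups did not. In edgeR its log2 fold change was 0.40 ± 0.20 (SE, adjusted p = 0.237) under vehicle and 0.73 ± 0.20 (SE, adjusted p = 0.0230) under Cmpd17b. Without Cmpd17b BPH/2J replicate 5 the value under Cmpd17b was 0.48 and was not called (edgeR adjusted p = 0.110). Without Cmpd17b BPN/3J replicate 2 or 3 it was 0.70 and 0.71, also not called (adjusted p = 0.0594 and 0.0590). With the heart library included it was 0.90 (adjusted p = 0.0573).

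Among the other complex I subunits, ND1 had group medians of 12274, 11568, 13542 and 15359.6 CPM in the order above, with log2 fold changes of 0.24 ± 0.20 under vehicle and 0.52 ± 0.19 under Cmpd17b (edgeR adjusted p = 0.482 and 0.103). ND3, one of the shortest of the class, had medians of 2022, 1883, 3840.4 and 3266 CPM and the widest estimates, 0.75 ± 0.38 and 0.97 ± 0.38 (adjusted p = 0.242 and 0.117). ND5 was at 0.11 ± 0.22 and 0.31 ± 0.22, and ND6 at 0.33 ± 0.30 and 0.43 ± 0.30. None of these was called, and the ranges of the strains overlapped for each.

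COX2 and COX3, the other core subunits of complex IV, had larger fitted differences than COX1 but a wider spread. COX2 ran from 16391 to 25263 CPM in vehicle BPN/3J and from 18592 to 39422 in vehicle BPH/2J, with log2 fold changes of 0.52 ± 0.30 under vehicle and 0.80 ± 0.30 under Cmpd17b. COX3 ran from 15654 to 23556 and from 19993 to 38000.4 CPM, with 0.63 ± 0.27 and 0.83 ± 0.27. The edgeR adjusted p under Cmpd17b was 0.0983 for COX2 and 0.0544 for COX3. ATP6, the proton channel subunit of complex V, was close to these at 0.59 ± 0.29 and 0.78 ± 0.29 (adjusted p under Cmpd17b 0.0988). All 3 had 1 library in vehicle or Cmpd17b BPN/3J well above the others of its group.

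The genes that overlap ATP6 and ND4 had fitted differences nearer to 0, and whether they differ from those of their neighbours was not tested. ATP8, the small subunit beside ATP6, was at 389.8, 341, 304 and 460.4 CPM in vehicle BPN/3J, at 375, 238, 210.3, 396 and 317 in Cmpd17b BPN/3J, at 480.1, 351, 380.2, 338 and 439.6 in vehicle BPH/2J, and at 407, 341, 231 and 314 in Cmpd17b BPH/2J. Its log2 fold change was 0.09 ± 0.20 under vehicle and 0.07 ± 0.20 under Cmpd17b (edgeR adjusted p under Cmpd17b 0.851). ND4L was at 1029, 610.4, 650.5 and 615 CPM in vehicle BPN/3J, at 1081, 430.0, 501, 844 and 455 in Cmpd17b BPN/3J, at 1363, 742, 469, 521 and 576 in vehicle BPH/2J, and at 1115, 514, 1069 and 429 in Cmpd17b BPH/2J. The strains overlapped almost entirely for both genes, and ND4L varied by more than its strain difference within each group. Its log2 fold changes were 0.02 ± 0.36 and 0.24 ± 0.36. How reads over the shared bases were assigned is not given in the sources used here.

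**Figure D2:**
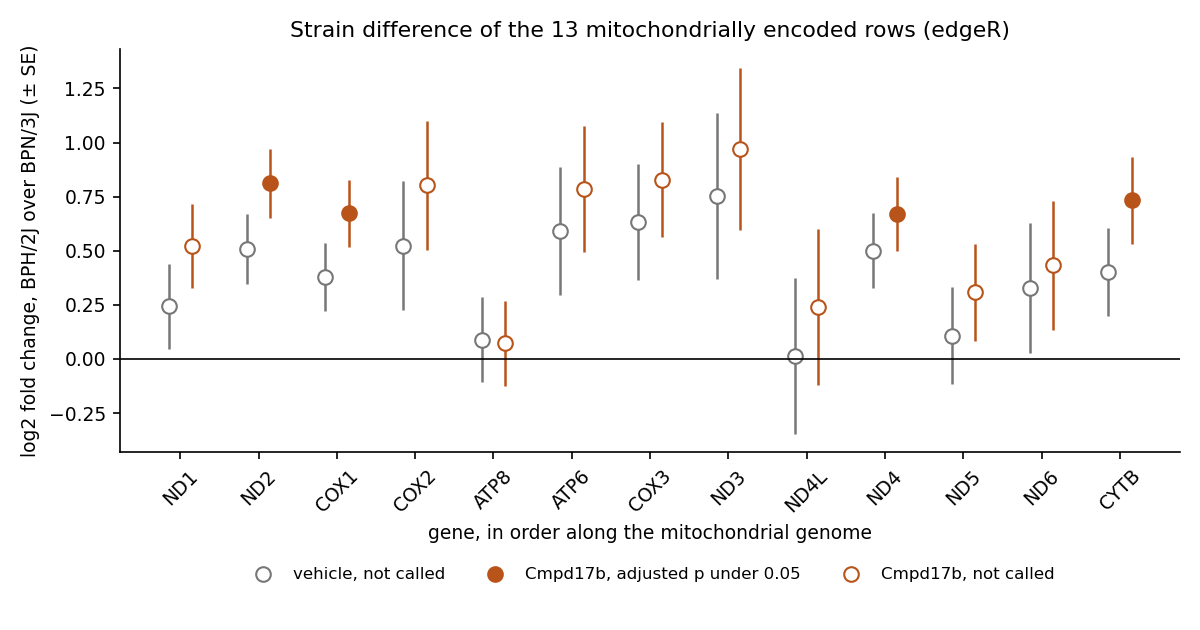
Log2 fold change of BPH/2J over BPN/3J for each of the 13 mitochondrially encoded genes, under vehicle and under Cmpd17b, with bars of 1 SE from edgeR and filled marks for genes called at an adjusted p under 0.05. All marks lie above 0 in this fit (ND4L under vehicle and ATP8 under Cmpd17b turn below 0 on library totals only), the 4 called genes being ND2, COX1, ND4 and CYTB under Cmpd17b.

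Among the 95 nuclear genes tested, 77 had a fitted log2 fold change above 0 under vehicle (81.1%, against 54.6% of all genes tested) and 83 under Cmpd17b (87.4% against 51.5%). The medians were 0.18 and 0.29. When counts were scaled by library totals only, 68 and 61 were above 0, with medians of 0.12 and 0.12 against a median of -0.13 over all genes under Cmpd17b. Few single genes were called, 1 of 95 under vehicle and 4 of 95 under Cmpd17b, all higher in BPH/2J. Cox4i2 was called under vehicle, and Cox6a2, Cox6b2 and Ndufaf2 were among those called under Cmpd17b. The shares are below the background shares of genes called higher.

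By complex, the nuclear subunits of complex IV had a median log2 fold change of 0.29 under vehicle, with 17 of 17 above 0, and 0.30 under Cmpd17b, with 16 of 17. Complex I was at 0.19 (32 of 39 above 0) and 0.32 (36 of 39), complex III at 0.17 and 0.25 (7 of 8 in both), and complex V at 0.22 (13 of 18) and 0.33 (14 of 18). Complex II, succinate dehydrogenase, had the lowest medians, -0.06 (1 of 4 above 0) and 0.03 (3 of 4). Its 4 genes all have transcripts of 1000 nucleotides or more, and the 33 nuclear members of that length described further on had medians of 0.06 and 0.12. Sdha, its flavoprotein, was at -0.11 and 0.03, and none of the 4 was called. These are counts and medians without a test.

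**Figure D3:**
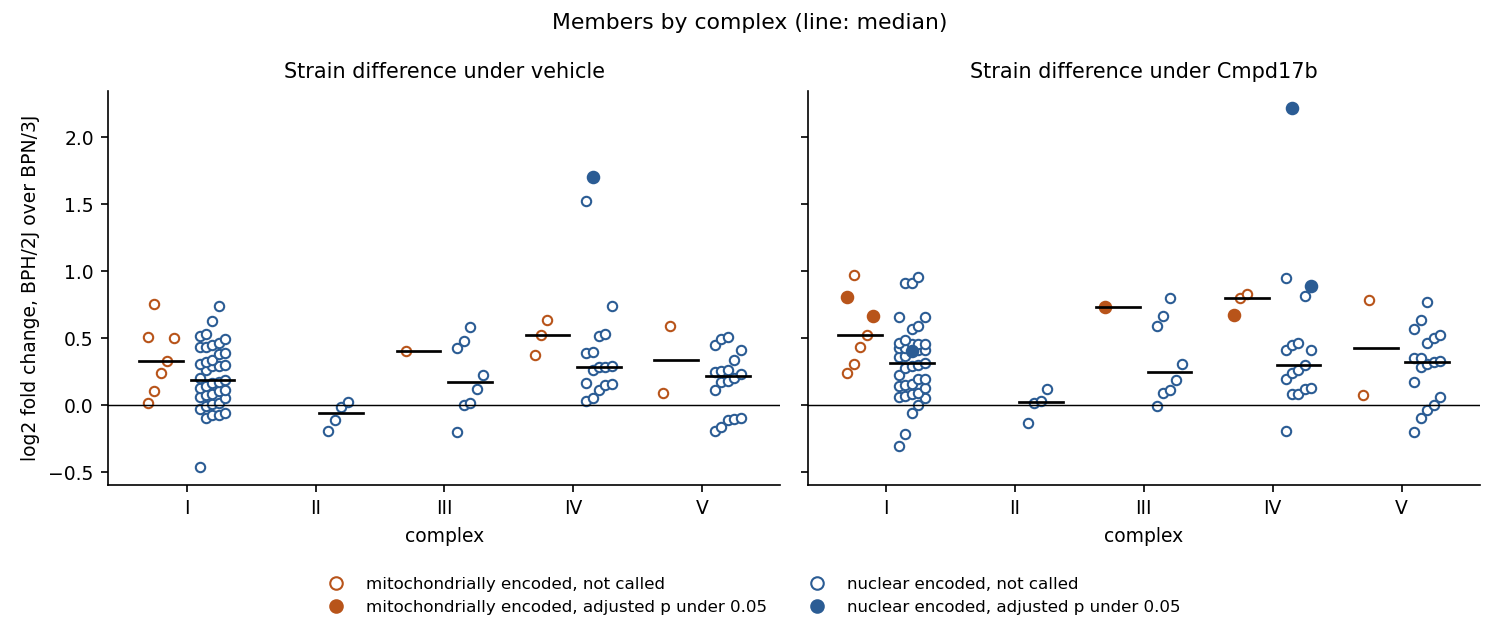
Log2 fold change of BPH/2J over BPN/3J for each tested gene, by complex and by genome, under vehicle and under Cmpd17b, with 1 point per gene of a complex, filled where called, and a line at each median. The nuclear subunits of complex IV have medians of 0.29 and 0.30, those of complex II -0.06 and 0.03.

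Several of the most abundant nuclear subunits had fitted values close to 0. Atp5f1b had group means of 2773, 2743, 2478 and 2741 CPM in the order above and log2 fold changes of -0.16 and 0.00. Cox4i1, the regulatory subunit of complex IV, was at 0.15 and 0.13, Uqcrc1, a core protein of complex III, at 0.00 and 0.09, and Cox6a1 at 0.05 and 0.09. Other abundant subunits were further from 0, chosen after their values had been seen: Cox6c was at 0.29 and 0.41, Atp5f1d at 0.34 and 0.46, and Uqcrq at 0.48 and 0.67. None of these was called. Atp5f1a, the alpha subunit of ATP synthase, was at 1964 to 2091 CPM in vehicle BPN/3J and 1756 to 1819.5 in vehicle BPH/2J, which do not overlap, and its log2 fold change of -0.19 was not called (edgeR adjusted p = 0.162). Atp5mc1, 1 of 3 genes for the ring subunit that carries protons through complex V, was at 0.49 and 0.63 (edgeR adjusted p = 0.234 and 0.115).

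Ndufaf2 encodes an assembly factor of complex I. It was at 9.71, 10.9, 11.7 and 17.6 CPM in vehicle BPN/3J, at 7.23, 9.27, 10.1, 10.4 and 14.7 in Cmpd17b BPN/3J, at 13.96, 17.4, 30.7, 21 and 20.8 in vehicle BPH/2J, and at 13.1, 21.5, 18.7 and 22.3 in Cmpd17b BPH/2J. BPH/2J libraries were mostly the higher ones, and the ranges overlapped in both arms. In edgeR its log2 fold change was 0.87 ± 0.24 (SE, adjusted p = 0.0223) under Cmpd17b and 0.73 (adjusted p = 0.0564) under vehicle. The first call was lost in 5 of 18 fits with a library left out.

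Cox6a2, Cox6b2 and Cox4i2 are minor isoforms of complex IV subunits. Their levels were far below those of the isoforms that the kidney uses: per kilobase, Cox6a2 was at 2.43 CPM against 839 for Cox6a1, Cox6b2 at 6.89 against 543 for Cox6b1, and Cox4i2 at 0.612 against 1095 for Cox4i1. The main isoforms were not called in any comparison.

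Cox6a2 is the heart and skeletal muscle form of subunit VIa. It was at 0.571, 0.381, 0.566 and 0.804 CPM in vehicle BPN/3J, at 0.507, 0.83, 1.4, 0.554 and 0.679 in Cmpd17b BPN/3J, at 0.514, 1.76, 2.35, 0.45 and 3.42 in vehicle BPH/2J, and at 3.11, 2.16, 3.54 and 6.17 in Cmpd17b BPH/2J. The 4 Cmpd17b BPH/2J libraries were above all 5 Cmpd17b BPN/3J libraries, while the vehicle groups overlapped. The edgeR log2 fold change was 2.22 ± 0.50 (SE, adjusted p = 0.0065) under Cmpd17b and 1.52 ± 0.53 (SE, adjusted p = 0.0754) under vehicle. The summed level of 14 heart muscle markers, all with counts, was 145, 155, 149 and 208 CPM in those 4 libraries against 5.86 to 14.96 CPM in the 3 other groups. Cox6a2 equalled 2.14%, 1.39%, 2.38% and 2.96% of that sum there, and 1.46% of the sum in the heart library. The part of heart RNA in its level was not tested.

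Cox6b2 encodes the form of subunit VIb best known from testis. It was at 3.36, 2.9, 3.32 and 3.96 CPM in vehicle BPN/3J, at 1.62, 2.32, 2.96, 2.4 and 3.06 in Cmpd17b BPN/3J, at 4.38, 4.16, 6.83, 4.16 and 4.71 in vehicle BPH/2J, and at 3.68, 5.49, 3.78 and 5.48 in Cmpd17b BPH/2J. The strains did not overlap in either arm. In edgeR its log2 fold change was 0.89 ± 0.21 (SE, adjusted p = 0.00861) under Cmpd17b and 0.51 (adjusted p = 0.134) under vehicle. With the heart library included, the adjusted p under Cmpd17b was 0.423.

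Cox4i2, the form of subunit IV known from lung and from oxygen-sensing cells, was at 0.235, 0.176, 0.212 and 0.321 CPM in vehicle BPN/3J, at 0.349, 0.111, 0.223, 0.259 and 0.373 in Cmpd17b BPN/3J, at 0.302, 0.322, 1.27, 1.07 and 0.951 in vehicle BPH/2J, and at 0.201, 0.378, 0.662 and 0.634 in Cmpd17b BPH/2J. Replicates 3 to 5 of vehicle BPH/2J were high and replicates 1 and 2 were level with BPN/3J. The edgeR log2 fold change was 1.70 ± 0.50 (SE, adjusted p = 0.0344) under vehicle. The call was lost in 6 of 18 fits with a library left out and in 4 of 10 other settings.

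Other muscle or fat isoforms were low and uneven. Cox7a1, the heart and muscle form of subunit VIIa, was at 6.53, 7.85, 20.7, 19.9 and 20.5 CPM in vehicle BPH/2J and at 6.27 to 12.7 CPM in vehicle BPN/3J, with log2 fold changes of 0.74 and 0.95 that were not called (edgeR adjusted p = 0.223 and 0.107). Cox8b, a muscle and brown fat form of subunit VIII, was at 1.5 CPM or less except in Cmpd17b BPN/3J replicate 1 at 3.87 CPM and vehicle BPH/2J replicate 4 at 3.82 CPM. Those were the libraries with the highest sums of the 6 fat markers, 71.0 and 34.1 CPM. Per kilobase, Cox7a1 was at 29.8 CPM against 429 for Cox7a2 and 103 for Cox7a2l, Cox8b at 2.80 against 908 for Cox8a, and Ndufa4l2 at 2.49 against 909 for Ndufa4.

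**Figure D4:**
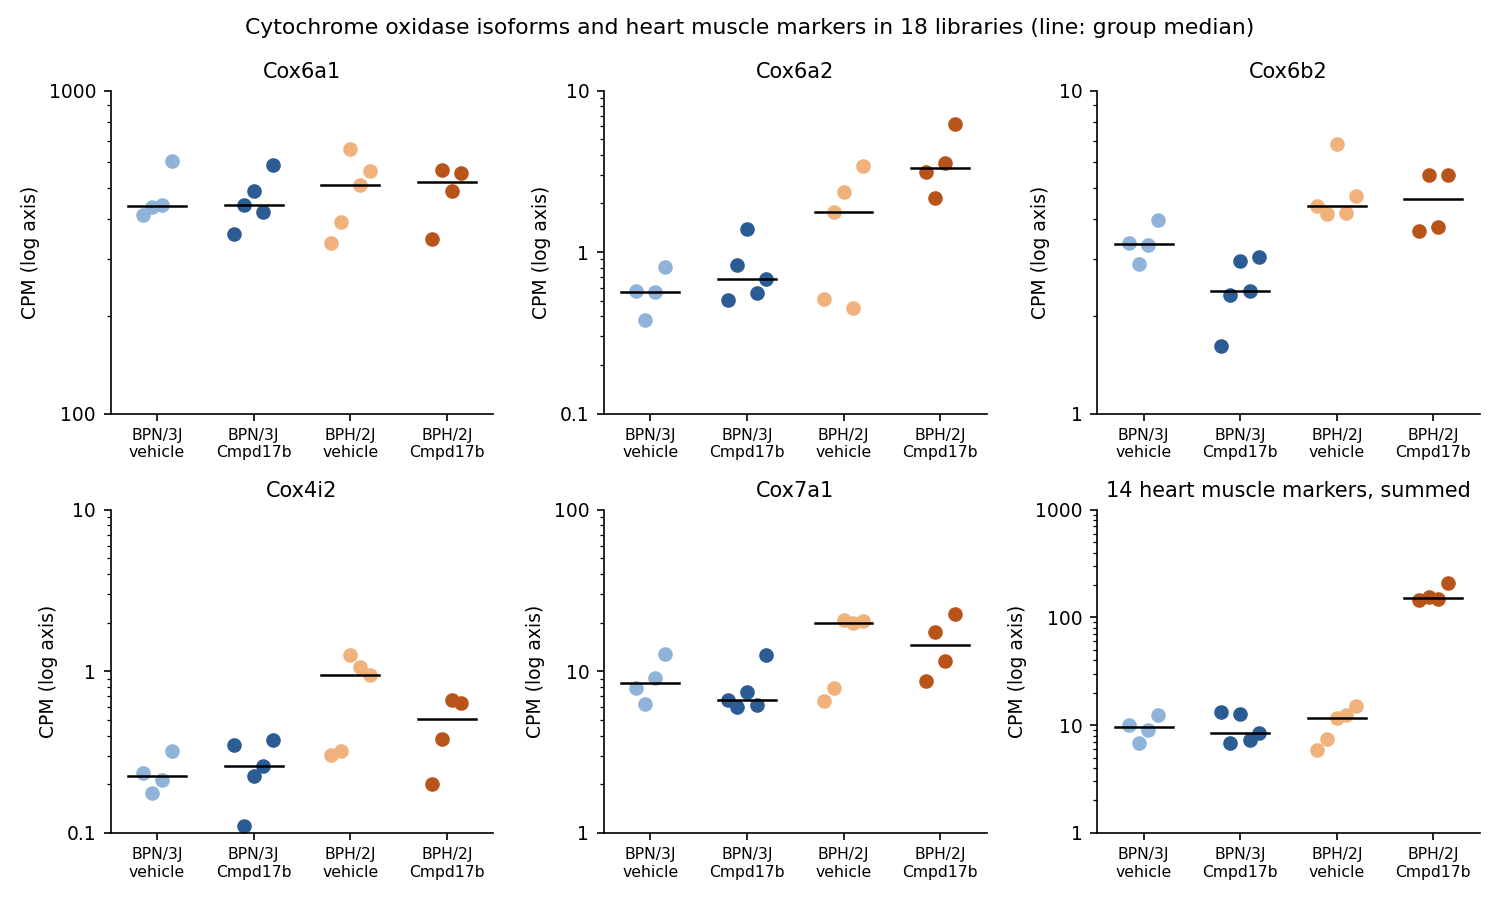
CPM on a log axis of Cox6a1, of the minor isoforms Cox6a2, Cox6b2, Cox4i2 and Cox7a1, and of 14 summed heart muscle markers, by group, with 1 point per library and a line at the group median. Cox6a2 runs from 2.16 to 6.17 CPM in Cmpd17b BPH/2J and from 0.507 to 1.4 CPM in Cmpd17b BPN/3J, while the heart markers are at 145 to 208 CPM in Cmpd17b BPH/2J and at 14.96 CPM or less in the 3 other groups.

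Much of the spread within groups was shared by the nuclear members and followed transcript length. Of the nuclear genes with a known length and a mean of at least 20 CPM there were 80: 20 with a transcript under 600 nucleotides, 27 of 600 to under 1000 and 33 of 1000 or more. The median SD of log2 CPM within groups was 0.52, 0.42 and 0.27 in that order, lower for longer transcripts. Atp5f1a was the steadiest, with an SD of 0.057, and Atp5f1e, the epsilon subunit of ATP synthase and a very short transcript, the most variable at 0.86. Length did not order every gene, as a pair picked after their values had been seen shows: Ndufb2, at 2413 nucleotides, had an SD of 0.80, and Atp5mc2, at 586, one of 0.14.

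The libraries differed as wholes. The median log2 deviation of the 20 shortest members from their own means was -0.21, -0.26, -0.23 and 0.56 in vehicle BPN/3J and -0.75, -0.31, -0.20, -0.33 and 0.46 in Cmpd17b BPN/3J. It was -0.62, -0.31, 0.82, 0.26 and 0.61 in vehicle BPH/2J and -0.66, 0.33, -0.14 and 0.87 in Cmpd17b BPH/2J. Each group held libraries of both kinds, 1 high library in each BPN/3J group, 3 in vehicle BPH/2J and 2 in Cmpd17b BPH/2J. In vehicle BPN/3J replicate 4, 77 of the 80 members were above their own mean, and in Cmpd17b BPN/3J replicate 1 only 2 were. That library held the lowest value of 57 of the 80 members.

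The 141 short genes that are no members deviated the same way in every library, from -0.54 in Cmpd17b BPN/3J replicate 1 to 0.72 in Cmpd17b BPH/2J replicate 5. The 6610 genes with a transcript of 3000 nucleotides or more lay between -0.15 and 0.16. The log2 ratio of ND4 to its short neighbour ND4L, which share a transcript, was 3.36 in the first of those libraries and 5.63 in the second, and that of ATP6 to ATP8 was 4.83 and 6.81. The thick ascending limb sum was 2827 and 1359 CPM in them. What sets the level of short transcripts was not tested.

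**Figure D5:**
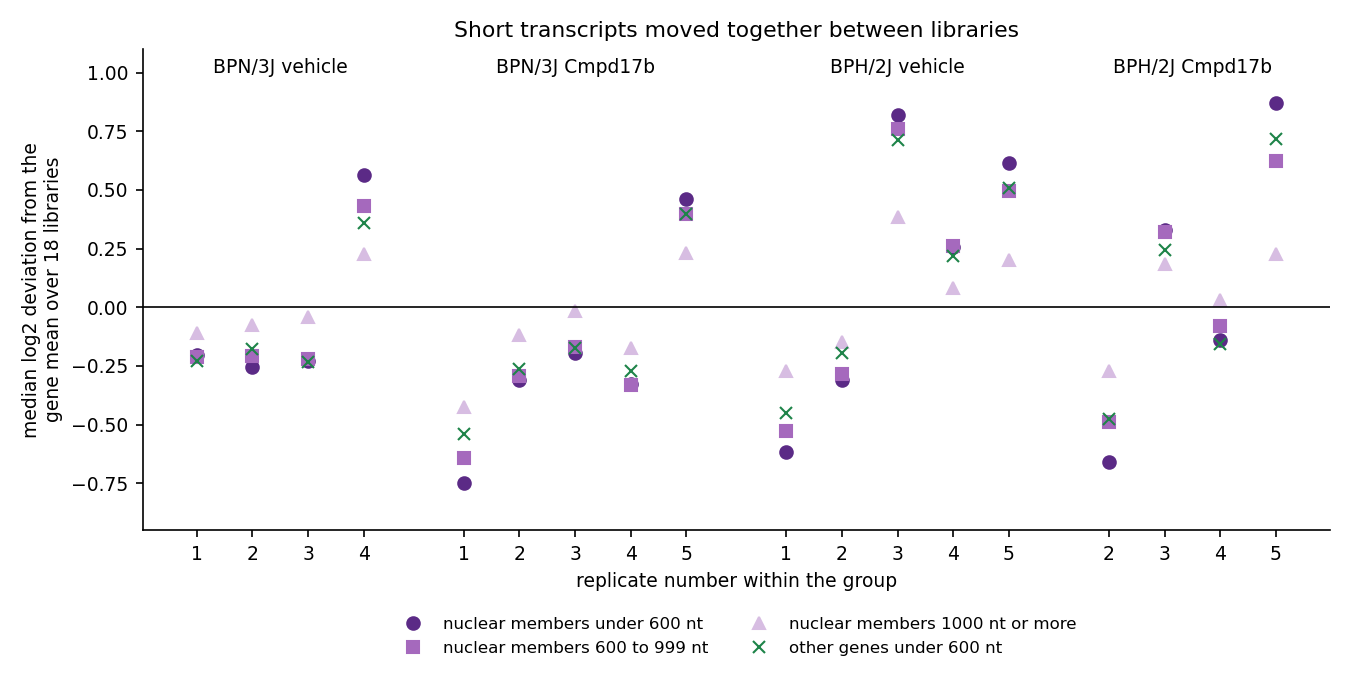
Median log2 deviation of CPM from each gene's own mean over the 18 libraries (vertical), by replicate within each group (horizontal), for nuclear members by transcript length and for the short genes that are no members. Members and other genes under 600 nucleotides move together, from -0.75 and -0.54 in Cmpd17b BPN/3J replicate 1 to 0.87 and 0.72 in Cmpd17b BPH/2J replicate 5.

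The strain medians of the nuclear members are set here beside those of other genes of the same length. The members were those with a mean of at least 20 CPM, and the other tested genes had no such floor. Abundance was therefore not matched. Under vehicle the member medians were 0.25, 0.26 and 0.06 in the 3 length classes, against 0.30, 0.24 and 0.03 for 141, 668 and 13004 other genes. Under Cmpd17b they were 0.38, 0.35 and 0.12, against 0.31, 0.23 and -0.01. In the longer classes under Cmpd17b, 27 of 27 and 27 of 33 members were above 0, against 500 of 668 and 6341 of 13004 other genes. Under vehicle 25 of 27 and 21 of 33 were, against 510 of 668 and 6913 of 13004. In the shortest class 18 of 20 members were above 0 in both arms, against 110 and 106 of 141 other genes. With the deviation of the 141 short genes as a covariate in the edgeR fit, chosen after these values had been seen, the nuclear medians were -0.06 under vehicle, with 29 of 95 above 0, and 0.03 under Cmpd17b, with 57 of 95 above 0. The mitochondrial medians were 0.26 and 0.47, and all 13 were above 0 in both arms.

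The same covariate raised the number of calls in both classes, as it did over all genes. Among mitochondrial genes, COX3, ND2, ND3 and ND4 were then called higher in vehicle BPH/2J, and ND2, COX3, COX1, ND4, CYTB, ND3, COX2 and ATP6 in Cmpd17b BPH/2J. Among nuclear genes, 3 were called higher under vehicle (Cox4i2 and Ndufaf2 among them) and 5 lower (Ndufa3, Ndufs4, Atp5pd, Ndufs1 and Atp5f1c). Under Cmpd17b 9 were higher (Cox6a2, Cox6b2, Ndufaf2, Cox7a1, Atp5mc1, Atp5po, Uqcr10 and Uqcr11 among them) and 2 lower (Ndufa3 and Atp5mc2). Calls over all genes went from 955 higher and 811 lower to 1429 and 1449 under vehicle, and from 937 and 764 to 1277 and 1243 under Cmpd17b.

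No member was called for Cmpd17b within a strain. In BPH/2J edgeR called 0.164% of all tested genes, none of them a member. At an unadjusted p under 0.05 there was no mitochondrial gene and 1 nuclear gene, Cox6a2, at a log2 fold change of 1.15 ± 0.49 (SE, edgeR adjusted p = 1). In BPN/3J it called 0.0% of genes, and again no member, with Cox6b2 at -0.45 ± 0.21 the only member at an unadjusted p under 0.05 (SE, edgeR adjusted p = 1). Over all 16421 tested genes, 608 in BPH/2J and 415 in BPN/3J were at an unadjusted p under 0.05. DESeq2 and limma-voom called no member in either strain.

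The fitted values nevertheless leaned one way in BPN/3J, where none of the 13 mitochondrial genes and 7 of the 95 nuclear genes had a log2 fold change above 0 (medians -0.10 and -0.12, against 0.00 over all genes). Over all genes 48.9% were above 0. On library totals only, 2 and 17 of the members were above 0, and with the covariate 2 and 18 (medians -0.05 and -0.04). Nuclear members moved together within libraries, as described above, so these counts are not independent. In BPH/2J 10 of 13 and 39 of 95 were above 0, with medians of 0.10 and -0.02, against 48.3% of all genes. The nuclear count there moved with the setting, to 15 of 95 on library totals only (median -0.08) and 76 of 95 with the covariate (median 0.05). The mean mitochondrial share moved by 1.14 percentage points in BPH/2J and -0.439 in BPN/3J, and the nuclear share by -0.0988 and -0.0982. Without Cmpd17b BPH/2J replicate 5, the library with the highest share, the value for BPH/2J was -1.04.

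Next to Cox6a2 in BPH/2J, the members with the smallest p were COX1 at 0.26, ND2 at 0.25 and ATP8 at -0.30 of the mitochondrial genes, and Ndufaf4 at -0.18 and Cox4i2 at -0.75 of the nuclear ones. In BPN/3J they were ATP8 at -0.28, Ndufa4l2 at 0.30 and Ndufaf2 at -0.28. Every member had an edgeR adjusted p of 1 in both strains. The interaction, which asks whether the Cmpd17b effect differed between the strains, was called for 0.0304% of genes and for no member, with no member at an unadjusted p under 0.05 and none called by DESeq2 or limma-voom. Over all 16421 tested genes, 529 were at an unadjusted p under 0.05 for the interaction. The interaction median was 0.22 for mitochondrial and 0.11 for nuclear genes. The 4 mitochondrial genes called under Cmpd17b and not under vehicle are therefore not shown to differ between the arms.

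Genes that read out, translate and assemble the respiratory chain were examined from lists. Over all tested genes, edgeR called 4.94% lower in BPH/2J under vehicle and 4.65% under Cmpd17b, which the counts below can be read against. A log2 fold change above 0 was fitted for 54.6% and 51.5% of all genes. Of 29 tested genes of mitochondrial transcription and RNA maintenance, 1 was lower in vehicle BPH/2J, Polg2, the accessory subunit of the mitochondrial DNA polymerase, at -0.58 (edgeR adjusted p = 0.0159). Under Cmpd17b 3 were lower: Mterf3 at -0.43, Prorp, the RNA-free RNase P subunit, at -0.63, and Fastkd5, which processes mitochondrial RNA, at -0.66. None was higher. Tfam, which packages mitochondrial DNA, was at -0.24 and -0.14, Polrmt, the mitochondrial RNA polymerase, at -0.01 and 0.01, and Lrpprc, which stabilises mitochondrial messenger RNA, at -0.30 and -0.19, with no call.

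Among 15 regulators of mitochondrial biogenesis, 1 was called, Esrra, the estrogen-related receptor alpha. Its mean was 160 ± 7.18 CPM (SD, n = 4) in vehicle BPN/3J and 130 ± 11.0 CPM (SD, n = 5) in vehicle BPH/2J, and 157 ± 11.0 (SD, n = 5) and 124 ± 5.47 (SD, n = 4) under Cmpd17b. The strains did not overlap in either arm, and the log2 fold change was -0.30 and -0.34 (edgeR adjusted p = 0.0333 and 0.0165). Ppargc1a, the coactivator PGC-1 alpha, was at -0.32 in both arms, Nrf1 at 0.12 and -0.29, and Gabpa at -0.47 and -0.50, with no call. Of the 15 regulators, 4 were above 0 under vehicle and 3 under Cmpd17b (medians -0.10 and -0.18).

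The mitochondrial ribosome translates the 13 mitochondrial messages. Of 78 tested genes for its proteins, 62 had a log2 fold change above 0 under vehicle and 69 under Cmpd17b, with medians of 0.13 and 0.18. Over all genes 54.6% and 51.5% were above 0, with medians of 0.04 and 0.01. The ribosomal list was not split by transcript length. Of 668 non-member genes of 600 to under 1000 nucleotides, 510 and 500 were above 0, with medians of 0.24 and 0.23. Of 13004 with 1000 nucleotides or more, 6913 and 6341 were, with medians of 0.03 and -0.01. The part of transcript length in the ribosomal counts was not tested. Calls were few, 1 and 2 of 78, against 5.82% and 5.71% of all genes called higher. Mrpl15 was called higher in both arms, at 0.66 and 0.71 (edgeR adjusted p = 0.0029 and 0.00133), and Mrps6 under Cmpd17b at 0.70 (adjusted p = 0.0477). Of 36 further assembly factors, Lyrm7, which guards the iron-sulphur protein of complex III before its insertion, was lower in both arms. It was at 4.01 ± 0.468 CPM (SD, n = 4) in vehicle BPN/3J against 1.49 ± 0.372 (SD, n = 5) in vehicle BPH/2J, and the log2 fold change was -1.43 and -1.63 (edgeR adjusted p = 0.000432 and 0.000194). Cox10, which makes the haem of complex IV, was higher under Cmpd17b at 0.36 (adjusted p = 0.0412).

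Of 17 electron carriers and enzymes of coenzyme Q synthesis, Pdss1, which makes the side chain of coenzyme Q, was lower in both arms at -0.50 and -0.36 (edgeR adjusted p = 0.00559 and 0.0477), and Gpd2 was lower under Cmpd17b at -0.80 (adjusted p = 0.0234). Cycs, cytochrome c, was at -0.39 and -0.23 with no call. Of 19 genes of the citric acid cycle and its entry, Pcx, pyruvate carboxylase, was lower in both arms, at -0.74 and -0.63 (edgeR adjusted p = 0.000269 and 0.00133). Of 13 tested carriers of ATP and porins, Slc25a24 was higher under vehicle at 1.17 (adjusted p = 0.0321). Under vehicle and Cmpd17b, 2 and 6 of the 19 citric acid cycle genes were above 0 (medians -0.13 and -0.04). Of the 17 electron carriers and coenzyme Q enzymes 7 and 8 were. Of the 13 carriers and porins 7 and 5 were, and of the 36 assembly factors 22 and 24. No gene of these lists was called for Cmpd17b in either strain or for the interaction.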

How the data were processed

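Kidney RNA from 19 mice was sequenced, 1 library each, and 18 libraries entered the comparisons. The authors trimmed reads with Trim Galore 0.6.7 and aligned them with STAR 2.7.9a to GRCm39 (mm39), per the submitters' processing notes. What counted the reads, and with which annotation, is not given in the sources used here. As deposited by the authors, the values are estimated counts (expected counts) per gene, and they were rounded to whole numbers here. Groups came from the strain and treatment labels. Whether mice shared a litter or cage is not given, so p-values measure the spread between these samples.

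All 4 groups entered 1 quasi-likelihood fit in edgeR 4.0.16 (R 4.3.3, robust, TMM factors, filterByExpr with a minimum count of 10 and minimum total of 15), with Benjamini-Hochberg adjustment over all 16421 genes and a call at an adjusted p under 0.05. Members and lists were chosen with earlier results of these data known, as was leaving out the heart library. Alternatives were DESeq2 1.42.0, limma-voom 3.58.1, other scalings and filters, a non-robust fit, a fit of the compared groups alone, all 19 libraries, the covariate, and leaving out each library. The fits were tested on simulated data, where DESeq2 made more false calls than edgeR. 2 pseudogene rows were left out of the members. Transcript lengths (GENCODE M21) were matched for 84.7% of tested genes.

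Named were all 13 mitochondrial genes, every called nuclear gene, in comparisons without a call the 3 genes of a class with the smallest p, the most abundant nuclear gene of each complex, the tissue isoforms, called genes of each list (at most 4) and 8 single genes. 1 gene that this rule names is not reported here. Plots used matplotlib 3.10.9 (Python 3.11.15).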

Additional observations from a re-analysis of the deposited data

Results flagged for a closer look

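In 156 sets of 4 or 5 libraries checked (a member or a class share in 1 group), 25 had a library far from the others of its group. Chance gives about 1 in 20 for a single set. Members move together within a library, so the sets are not independent and the 25 cannot be read against that rate. Most of the 25 were in vehicle BPN/3J replicate 4, the library of that group with high short transcripts. Its nuclear share was 3.02% against 2.46% to 2.50% in the other 3. Of the mitochondrial genes, ND3 was at 3976 CPM against 1763 to 2129.8, ND6 at 726 against 359.9 to 399, COX2 at 25263 against 16391 to 16772 and COX3 at 23556 against 15654 to 16736. Of the nuclear genes, Atp5mc1 was at 248 CPM, Atp5mc3 at 1054, Cox4i1 at 1018, Cox6a1 at 606, Cox6b1 at 388, Cox7a2 at 392, Cox7b at 403, Cox8a at 609 and Ndufa4 at 707, each above the other 3 libraries.

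Cmpd17b BPN/3J replicate 5 stood above its group for ND3 at 3041 CPM against 1577 to 1991, COX3 at 23405 against 13815 to 16581, ATP6 at 16533 against 10655 to 12328, Cox7a1 at 12.7 CPM, Cox7a2 at 391 CPM and Cox7b at 371 CPM. ND4L was at 1029 CPM in vehicle BPN/3J replicate 1 against 610.4 to 650.5. Vehicle BPH/2J replicate 3 was below its group for Atp5f1b, at 2028 CPM against 2489 to 2646, and above it for Cox6b2, at 6.83 CPM against 4.16 to 4.71. Cox8b was at 3.87 CPM in Cmpd17b BPN/3J replicate 1 and at 3.82 CPM in vehicle BPH/2J replicate 4.

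The library labelled Cmpd17b BPH/2J replicate 1, which entered no comparison, held the muscle isoforms at levels not seen elsewhere. Cox6a2 was at 1103 CPM of its total, against 0.405 to 5.0 in the other 18 libraries, Cox7a1 at 475 CPM against 6.31 to 21.1, and Cox8b at 382 CPM against 0.159 to 4.31. The 14 heart muscle markers held 7.57% of its counts.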

How the results depend on the processing

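Of 898 values of single genes under an alternative, 828 kept their direction and side of the threshold, 32 lost a call, 27 gained one and 11 changed sign. ND2, COX1 and Cox6a2 under Cmpd17b were called under every alternative run, with a largest adjusted p of 0.0186, 0.0497 and 0.0266. Under vehicle, mitochondrial calls (0) were 2 with DESeq2, 2 with library totals only, 1 with limma-voom and 4 with the covariate, and 0 to 3 with a library left out. Nuclear calls under vehicle (1) were 0 with 1 CPM in 4 libraries, all 19 libraries, limma-voom, no filter or only the compared groups, 5 with DESeq2, 2 with library totals only and 8 with the covariate, and 0 to 4 with a library left out. Under Cmpd17b, mitochondrial calls (4) were 8 with the covariate and 2 to 7 with a library left out, 2 without Cmpd17b BPH/2J replicate 5 and 7 without replicate 2. Nuclear calls (4) were 11 with the covariate and 2 to 5 with a library left out. With all 19 libraries the nuclear share differed by 0.55 points under Cmpd17b. ND4L under vehicle was -0.004005 on library totals only and -0.071 in limma-voom, and -0.33 to 0.23 with a library left out. ND5 was -0.065 to 0.21, and ATP8 under Cmpd17b -0.072 on library totals only and -0.061 to 0.20 with a library left out. The cause was not tested. Over all genes, calls were 2343 and 2251 with DESeq2 in the strain comparisons. Under Cmpd17b 667 of 1636 were higher on library totals only, against 937 of 1701. No paired analysis was possible because replicate numbers were given in accession order and tie no mice together. Counting precision is lowest for genes at a few CPM or less, such as Cox4i2, Cox6a2, Cox6b2, Cox8b, Ndufa4l2, Lyrm7 and Slc25a24.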
